A study of Homo sapiens with 10 samples.

Results

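The purine synthesis enzymes are 10 genes of the route that builds adenine and guanine nucleotides. They were chosen by name, and all 10 were found among the 20263 genes listed (PRPS1, PPAT, GART, PFAS, PAICS, ADSL, ATIC, IMPDH1, IMPDH2 and GMPS). RNA was sequenced from PANC-1 cells, an established human pancreatic carcinoma line. The LY group of 5 libraries received 20 µM LY for 24 h, where LY is lycorine, a plant alkaloid known to inhibit protein synthesis. The control group of 5 libraries received the vehicle DMSO, and its columns carry the names NC-1 to NC-5, which were assigned to the group and not to single samples. The question is how lycorine changes the expression of these cells, per the series title. Values are TPM, a level scaled for transcript length and library total.

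De novo purine synthesis assembles the purine ring step by step on ribose phosphate and ends in IMP, from which AMP and GMP branch. It consumes glutamine, glycine, aspartate and formyl groups carried by folate, and dividing tumour cells draw on it for RNA, DNA and GTP. PRPS1 makes the activated ribose PRPP, PPAT commits it to the pathway, and GART, PFAS, PAICS, ADSL and ATIC carry the ring to IMP. IMPDH1 and IMPDH2 are paralogs that both oxidise IMP at the rate-limiting step towards GMP, and GMPS completes GMP.

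PPAT and PAICS lie head to head on chromosome 4 with 125 bases between their GENCODE start sites. This stretch is shown because the pair could be compared as neighbours. It stands beside the stretches before PRPS1 and PRPS2, paralogs that moved apart. Sequences are from RefSeq (GRCh38.p14) and are written 5′ to 3′ on the strand of the gene named, and each ends at the base before its GENCODE start. Capitals mark matches to the letters GGGCGG (GC box) or CCAAT on either strand. The coordinates are chr4:56435616-56435740 (plus strand), chrX:107628260-107628423 (plus strand) and chrX:12791162-12791354 (plus strand).
PAICS (and, reversed, PPAT): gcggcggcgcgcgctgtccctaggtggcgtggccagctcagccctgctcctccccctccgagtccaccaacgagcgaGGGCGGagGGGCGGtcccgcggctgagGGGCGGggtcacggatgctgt
PRPS1: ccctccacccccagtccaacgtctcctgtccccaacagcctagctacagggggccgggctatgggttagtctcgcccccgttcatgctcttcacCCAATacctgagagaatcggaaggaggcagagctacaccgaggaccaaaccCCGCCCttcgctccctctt
PRPS2: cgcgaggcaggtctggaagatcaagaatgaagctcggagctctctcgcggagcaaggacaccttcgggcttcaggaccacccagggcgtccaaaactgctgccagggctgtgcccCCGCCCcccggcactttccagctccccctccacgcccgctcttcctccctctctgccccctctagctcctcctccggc

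Promoter windows of 300 bases (250 before the RefSeq start to 50 after it) were given for 8 of the 10 members. ADSL and IMPDH2 are named only. The E-box letters CACGTG occurred in the windows of 3 of these 8 members (PPAT, PAICS and ATIC), against 7.26% of all 35116 windows, and PPAT and PAICS share their site. Short stretches with these sites are shown for PAICS and ATIC, and 1 for IMPDH1, the only member that fell. They lie at chr4:56435772-56435801, chr2:215312001-215312030 and, on the minus strand, chr7:128409987-128410016, with the motif in capitals.
PAICS, E-box: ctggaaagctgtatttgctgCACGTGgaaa
ATIC, E-box: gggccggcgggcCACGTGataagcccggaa
IMPDH1, GC box: aggccCCGCCCcggcggccCCGCCCctcct
The PAICS site begins 40 bases after its start, and the ATIC site shown 46 bases before its own. The ATIC window held a second E-box, 29 bases after the start. Windows of 7 of the 8 members held a GC box (45.0% of all windows), all but that of GART. PPAT and PAICS share their 3 GC boxes, which lie in the stretch shown above. Windows of 2 of the 8, PRPS1 and GART, held CCAAT (34.6% of all windows). The letters CCGGAAG (ETS, 10.3% of all windows) and TGATGNAA (ATF4, 3.62%) and the NRF1 motif (1.24%), searched on both strands like the others, occurred in 0 of the 8 windows. The E-box is its own reverse complement, and a match is a description of letters, not a site of binding.

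On the deposited TPM scale, 6 of the 10 enzymes were higher in LY-treated cells and 1 was lower. IMPDH2, ATIC and GART were each about doubled, PRPS1, PPAT and GMPS rose by less, and IMPDH1 fell. PFAS, PAICS and ADSL did not pass the test. Calls are from limma on log2(TPM + 1) with a Benjamini-Hochberg adjusted p under 0.05 over all 11663 tested genes, and all 10 members passed the filter on low values. Among all tested genes 64.6% were called, 39.8% higher and 24.9% lower in LY, so a call by itself is common here. With median-ratio, quantile and upper-quartile scaling between libraries, 5, 4 and 3 members were called higher, and 1 lower each time. The 10 members had a median log2 fold change of 0.45, against 0.17 over the whole table tested (0.22 with a minimum TPM of 5). The members were chosen with earlier results of these data known, so this difference is a description.

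Summed TPM of all 10 members ran from 2233 to 2460 in LY libraries and from 1024 to 1526 in DMSO libraries. NC-2 was the lowest DMSO library at 1024, and the other 4 lay between 1433 and 1526. Mitochondrially encoded genes took 37.5% of TPM in NC-2, against 12.2% to 14.1% in the other 4 DMSO libraries and 6.43% to 14.9% in LY libraries. A larger mitochondrial share lowers the TPM of other genes, so a member's value without NC-2 is given where it moved by over 1.5 times or its call changed, and also for both IMP dehydrogenases.

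**Figure D1:**
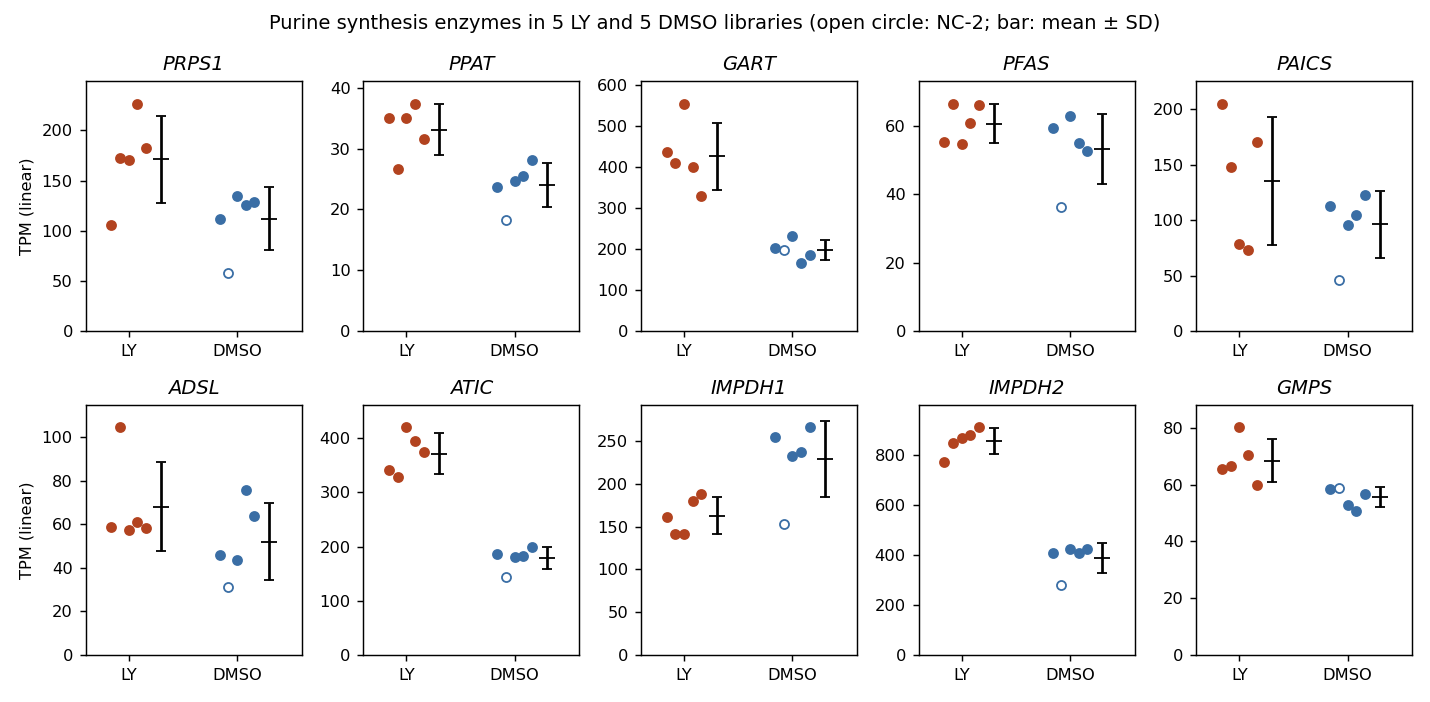
TPM on a linear axis in each LY library (left) and DMSO library (right) for the 10 enzymes, with the mean ± SD of 5 libraries beside the points and NC-2 as an open circle. GART, ATIC, IMPDH2 and GMPS show no overlap between the groups, and IMPDH1 lies lower in LY except for NC-2 at 153 TPM.

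PRPS1 (ENSG00000147224, chromosome X, 107628424 to 107651026, GRCh38), which makes PRPP, held 105, 172, 171, 226 and 182 TPM in LY-1 to LY-5, against 112, 57.7, 135, 126 and 129 TPM in NC-1 to NC-5. The groups overlapped, since LY-1 lay below 4 of the 5 DMSO libraries. Its mean was 171 ± 43.3 TPM in LY and 112 ± 31.5 TPM in DMSO (SD, n = 5 each), a log2 fold change of 0.63 ± 0.25 (SE, limma adjusted p = 0.0412). The call was lost on leaving out any 1 of LY-2, LY-3, LY-4, LY-5, NC-1 or NC-2 (limma adjusted p from 0.0592 to 0.0993). Without NC-2 the log2 fold change was 0.41 (adjusted p = 0.0592).

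PPAT (ENSG00000128059, chromosome 4, 56393362 to 56435615), the amidotransferase of the committed step, was the least abundant member in both groups. It held 35.0, 26.6, 35.1, 37.4 and 31.7 TPM in LY-1 to LY-5, against 23.6, 18.2, 24.6, 25.5 and 28.1 TPM in NC-1 to NC-5. LY-2 lay below NC-5, and the other 4 LY libraries lay above all DMSO libraries. PPAT averaged 33.1 ± 4.19 TPM in LY and 24.0 ± 3.64 TPM in DMSO (log2 fold change 0.45 ± 0.13, limma adjusted p = 0.00865). With upper-quartile scaling it did not pass (limma adjusted p = 0.0822).

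GART (ENSG00000159131, chromosome 21, 33503931 to 33543491) is a trifunctional protein, and 1 of its activities is a formyl transfer from folate. LY-1 to LY-5 held 437, 410.2, 554, 401 and 328 TPM, and NC-1 to NC-5 held 203, 198, 233, 166 and 187 TPM. Every LY library lay above every DMSO library. The mean was 426 ± 82.0 TPM in LY and 198 ± 24.4 TPM in DMSO, a log2 fold change of 1.09 ± 0.14 (2.13-fold, limma adjusted p = 2.77e-05). GART overlaps SON on the opposite strand, a splicing cofactor gene that measured 204 ± 11.9 TPM in LY and 138 ± 5.48 TPM in DMSO (log2 fold change 0.56 ± 0.08). Without strand information reads of such an overlap cannot be told apart, and whether the counting used strand is not given in the sources used here.

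PFAS (ENSG00000178921, chromosome 17, 8247618 to 8270491), the glutamine-using amidotransferase of the middle of the route, did not pass. It held 55.4, 66.5, 54.6, 61.0 and 66.0 TPM in LY-1 to LY-5, against 59.3, 36.3, 63.0, 55.0 and 52.5 TPM in NC-1 to NC-5. The groups overlapped, and NC-2 was the lowest of all 10 libraries. Means were 60.7 ± 5.64 TPM in LY and 53.2 ± 10.3 TPM in DMSO (log2 fold change 0.20 ± 0.14, limma adjusted p = 0.221), and without NC-2 the log2 fold change was 0.076. The sign of this difference turned with quantile normalization (-0.060) and upper-quartile scaling (-0.037). PFAS overlaps CTC1, a telomere maintenance gene on the opposite strand, which measured 47.4 ± 13.0 TPM in LY and 21.5 ± 5.26 TPM in DMSO.

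PAICS (ENSG00000128050, chromosome 4, 56435741 to 56464579), an enzyme with a carboxylase and a synthetase activity, varied most among LY libraries, with a coefficient of variation of 42.6%. Its TPM was 205, 148, 78.6, 73.4 and 170.1 in LY-1 to LY-5, against 113, 45.8, 95.2, 105 and 122 in NC-1 to NC-5. LY-1, LY-2 and LY-5 lay above all DMSO libraries, whereas LY-3 and LY-4 lay below 4 of the 5. Means of 135 ± 57.5 TPM in LY and 96.1 ± 29.9 TPM in DMSO gave a log2 fold change of 0.44 ± 0.33 (limma adjusted p = 0.254). It was 0.27 without LY-1 and 0.20 without NC-2. For comparison, the coefficient of variation among LY libraries was 6.17% for IMPDH2, 10.2% for ATIC and 12.6% for PPAT.

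ADSL (ENSG00000239900, chromosome 22, 40346500 to 40390463) acts both before IMP and in the branch to AMP. It held 58.9, 104, 57.4, 60.9 and 58.3 TPM in LY-1 to LY-5, against 45.9, 31.2, 43.5, 75.8 and 63.7 TPM in NC-1 to NC-5. LY-2 stood well above the other 4 LY libraries, which lay within the DMSO range. Means were 68.0 ± 20.4 TPM in LY and 52.0 ± 17.7 TPM in DMSO (log2 fold change 0.40 ± 0.24, limma adjusted p = 0.151). Leaving out LY-2 or NC-2, 1 at a time, gave 0.24 in both cases. ADSL overlaps SGSM3 on the same strand, a gene that measured 10.2 ± 1.80 TPM in LY and 23.3 ± 4.64 TPM in DMSO. Of the 31-base words of ADSL transcripts in GENCODE release 29, 17.1% also occur in AL022238.4, a coding gene annotated across the same locus, so the level of ADSL is uncertain.

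ATIC (ENSG00000138363, chromosome 2, 215311817 to 215349773) closes the ring to IMP after a formyl transfer. It held 341, 328, 419.9, 394 and 374 TPM in LY-1 to LY-5, against 187, 143, 181, 183 and 199 TPM in NC-1 to NC-5. The groups did not overlap. ATIC averaged 371 ± 37.8 TPM in LY and 179 ± 20.8 TPM in DMSO, a log2 fold change of 1.05 ± 0.11 (2.08-fold, limma adjusted p = 6.02e-06). Other genes of nearly the same sequence can take reads from members: 11.9% of the 31-base words of PPAT, 14.5% of those of PAICS and 17.6% of those of IMPDH1 occur elsewhere in GENCODE, in part in pseudogenes, so their levels carry that uncertainty. GART and ATIC, the enzymes of the route that take a formyl group from folate, were both called higher in LY. Of all tested genes 39.8% were called higher, and a link of these calls to folate was not tested.

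IMPDH2 (ENSG00000178035, chromosome 3, 49024325 to 49029408), the inducible form of IMP dehydrogenase, was the most abundant member in both groups and had the largest increase. LY-1 to LY-5 held 769, 847, 868, 880.1 and 909 TPM, against 405, 281, 424, 408 and 423 TPM in NC-1 to NC-5. All LY libraries lay above all DMSO libraries. Means of 855 ± 52.7 TPM in LY and 388 ± 60.8 TPM in DMSO gave a log2 fold change of 1.15 ± 0.13 (2.22-fold, limma adjusted p = 7.99e-06). Without NC-2, the low DMSO library, the log2 fold change was 1.04.

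IMPDH1 (ENSG00000106348, chromosome 7, 128392277 to 128410252), the paralog of IMPDH2, moved the opposite way. It held 161, 142, 141, 180.2 and 188 TPM in LY-1 to LY-5, against 255, 153, 233, 238 and 266 TPM in NC-1 to NC-5. NC-2 lay within the LY range and the other 4 DMSO libraries lay above it. The means were 162 ± 21.6 TPM in LY and 229 ± 44.4 TPM in DMSO, and the log2 fold change was -0.48 ± 0.15 (limma adjusted p = 0.0167). Without NC-2 it was -0.61, and with an exact Wilcoxon test on all 10 libraries it did not pass (adjusted p = 0.0848).

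GMPS (ENSG00000163655, chromosome 3, 155870536 to 155944026), which aminates XMP to GMP, held 65.6, 66.5, 80.2, 70.4 and 59.8 TPM in LY-1 to LY-5. NC-1 to NC-5 held 58.3, 58.9, 52.9, 50.8 and 56.6 TPM. The groups did not overlap, but LY-5 and NC-2 lay close together. GMPS averaged 68.5 ± 7.55 TPM in LY and 55.5 ± 3.52 TPM in DMSO (log2 fold change 0.29 ± 0.10, limma adjusted p = 0.0177). The call was lost with median-ratio, quantile and upper-quartile scaling (limma adjusted p from 0.268 to 0.868) and on leaving out NC-4 (0.0501).

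**Figure D2:**
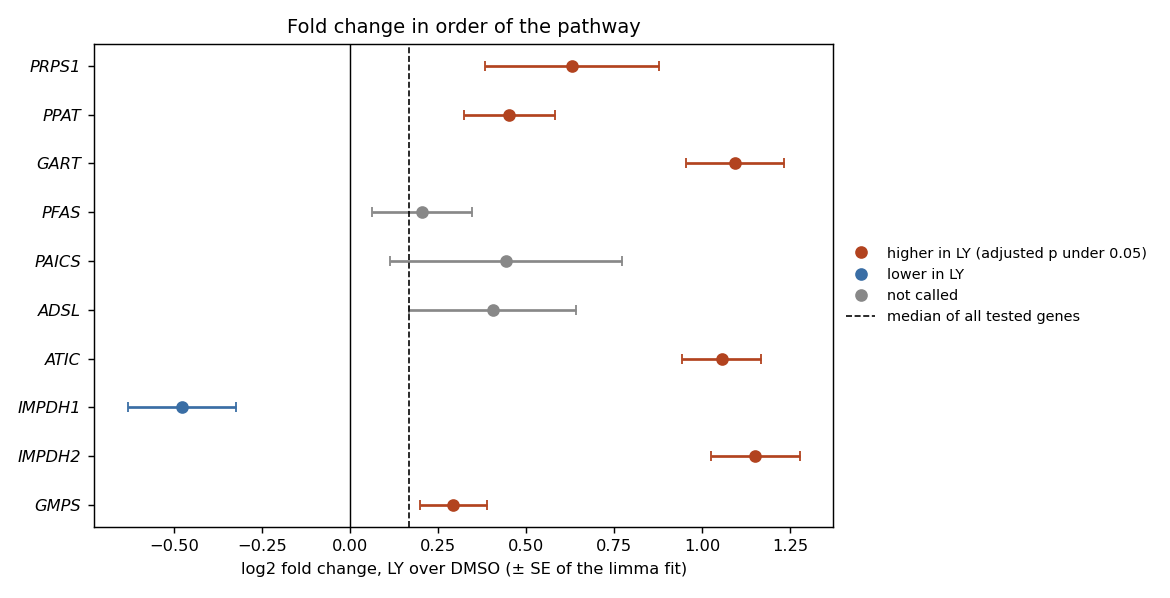
Log2 fold change of LY over DMSO with the SE of the limma fit, in the order of the pathway from PRPS1 to GMPS, with the median of all tested genes (0.17) as a dashed line. The 3 increases above 1 are GART, ATIC and IMPDH2, and IMPDH1 at -0.48 is the only member below 0.

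Groups did not overlap in 4 of the 10 members, all higher in LY (GART, ATIC, IMPDH2 and GMPS), and the share without overlap across the tested genes was 49.4% (32.7% higher in LY). A log2 fold change of at least 1 with a call was found in 3 of the 10 members and in 12.4% of all tested genes. Read relative to the median of all tested genes, the log2 fold change was 0.98 for IMPDH2, 0.93 for GART, 0.89 for ATIC and -0.64 for IMPDH1. PFAS, at 0.04, lay at the median of the tested genes. All libraries of a group come from 1 line, no source says whether they came from separate cultures, and p-values measure the spread between these libraries.

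The order of levels shifted with the treatment. In LY the mean TPM ran from IMPDH2 through GART, ATIC, PRPS1, IMPDH1, PAICS, GMPS, ADSL and PFAS to PPAT. In DMSO it ran from IMPDH2 through IMPDH1, GART, ATIC, PRPS1, PAICS, GMPS, PFAS and ADSL to PPAT. IMPDH1 thus had rank 5 in LY and rank 2 in DMSO. The ranges of neighbours in this order overlapped except below IMPDH2, below ATIC and above PPAT, in both groups.

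Median-ratio and upper-quartile scaling apply a common factor to each library, so they moved the members nearly together. Quantile normalization applies no common factor. Under it the log2 fold change went from 1.15 to 0.95 for IMPDH2 and from -0.48 to -0.75 for IMPDH1. Over the tested genes the median difference was 0.17 on the deposited scale, and it was 0.03 after median-ratio scaling, 0.05 after quantile normalization and -0.06 after upper-quartile scaling. Increases made up 61.5% of calls on the deposited scale, and 51.2%, 52.3% and 44.7% after those scalings in the same order. Under these 3 scalings GART, ATIC and IMPDH2 stayed higher in LY and IMPDH1 lower, each with an adjusted p under 0.05 in limma.

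**Figure D3:**
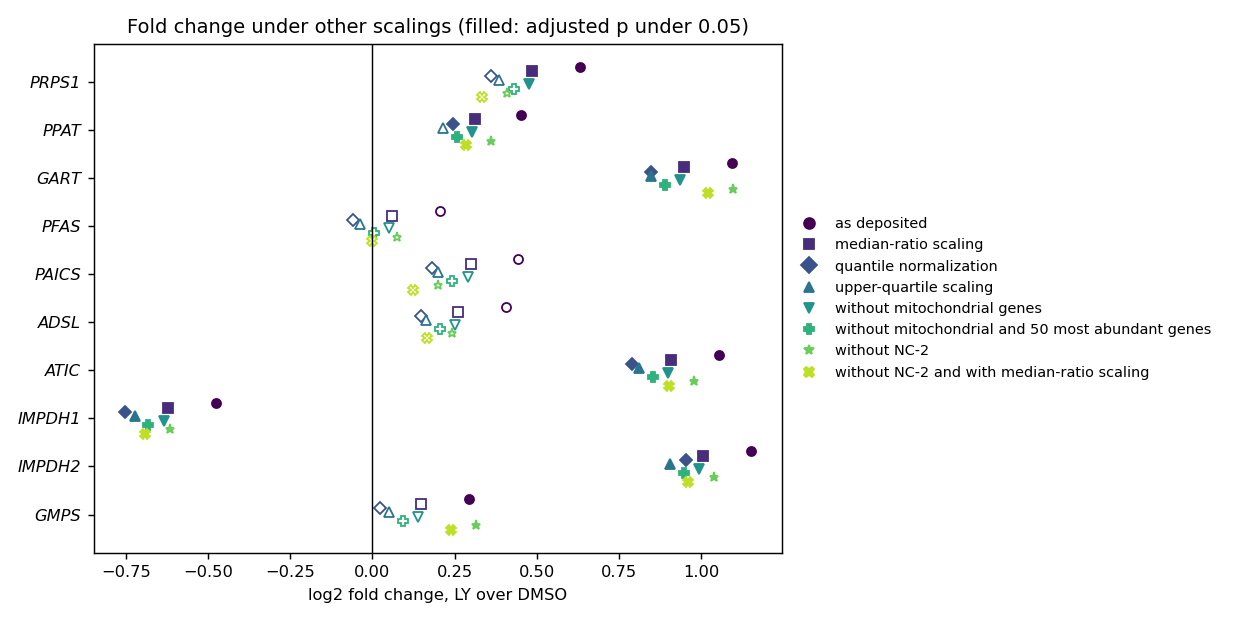
Log2 fold change of LY over DMSO for each enzyme as deposited and under 7 other scalings or sets of genes and libraries, filled where the adjusted p of limma was under 0.05. GART, ATIC and IMPDH2 stay to the right and IMPDH1 to the left of 0 and filled throughout, whereas PFAS crosses 0 and GMPS and PRPS1 are open in several settings.

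Ratios within a library do not depend on scaling by a common factor per library. Of these ratios 3 were tested by two-sided exact permutation tests over all 252 assignments of the libraries, adjusted over the 3. The log2 ratio of IMPDH1 to IMPDH2 was -2.26, -2.58, -2.62, -2.29 and -2.27 in LY-1 to LY-5, against -0.67, -0.87, -0.87, -0.78 and -0.67 in NC-1 to NC-5. The groups were far apart, and NC-2 lay among the other DMSO libraries. IMPDH1 stood at 0.190 ± 0.0233 of the IMPDH2 level in LY and at 0.587 ± 0.0411 in DMSO. The difference on the log2 scale was -1.63 ± 0.09 (SE, exact permutation p = 0.00794, the smallest the design allows, adjusted p = 0.0119).

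PRPS1 and PRPS2, the X-linked paralogs that both make PRPP, changed places. PRPS2 (ENSG00000101911) held 74.2, 73.1, 84.3, 95.7 and 84.3 TPM in LY-1 to LY-5, against 171, 112, 153, 142 and 157 TPM in NC-1 to NC-5 (log2 fold change -0.82 ± 0.12, limma adjusted p = 0.00011). No LY library reached the DMSO range. The PRPS1 to PRPS2 ratio was between 1.42 and 2.37 in LY libraries and between 0.516 and 0.890 in DMSO libraries. PRPS1 was thus the more abundant of the pair in all 5 LY libraries, and PRPS2 in all 5 DMSO libraries. The log2 ratio differed by 1.46 ± 0.20 (SE, exact permutation p = 0.00794, adjusted p = 0.0119). GENCODE transcripts of PRPS2 share none of their 31-base words with another gene, and those of PRPS1 share 7.74% (209 words). Of these words 109 occur in PRPS1L1 and 108 in PRPS1P2. PRPS1L1 averaged 0.0347 TPM in LY and 0.0187 TPM in DMSO.

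PPAT and PAICS, which share the stretch of 125 bases shown above, had overlapping ratios. The log2 ratio of PPAT to PAICS was -2.55, -2.48, -1.16, -0.97 and -2.43 in LY-1 to LY-5, against -2.25, -1.33, -1.95, -2.03 and -2.13 in NC-1 to NC-5. LY-3 and LY-4 lay above all DMSO libraries and the other 3 LY libraries below them, so the groups overlapped. The difference was 0.02 ± 0.38 (SE, exact permutation p = 0.976), an interval too wide to call the ratio unchanged. In LY-3 and LY-4 PPAT stood at 0.446 and 0.509 of the PAICS level, against 0.171 to 0.186 in the other 3 LY libraries and 0.210 to 0.398 in DMSO libraries.

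**Figure D4:**
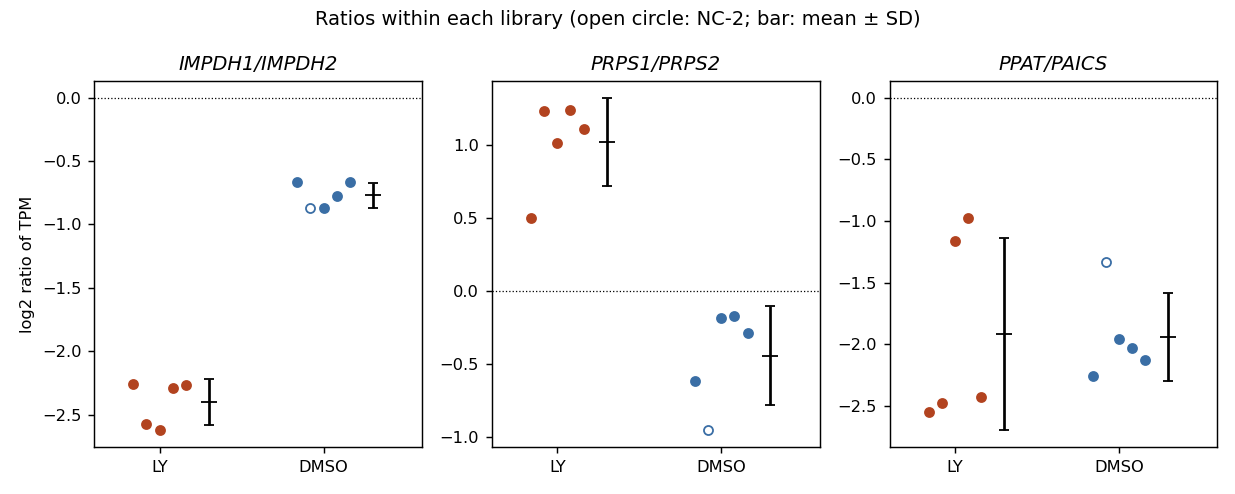
Log2 ratio of TPM within each library for IMPDH1/IMPDH2, PRPS1/PRPS2 and PPAT/PAICS, in LY (left) and DMSO (right), with the mean ± SD of 5 libraries and NC-2 as an open circle. The first and second ratios do not overlap between the groups, and the third has LY-3 and LY-4 near -1 and the other LY libraries near -2.5.

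Genes that feed, branch from or run beside the pathway were taken from 10 lists. Without the members these lists named 88 genes, of which 87 were in the table and 76 were tested. In limma 20 of the 76 rose, 26 fell and 30 did not pass, with a median log2 fold change of -0.02, against 0.17 for all tested genes. The shares over all tested genes were 39.8% higher and 24.9% lower, and the counts per list below are to be read beside them. The counts of genes that rose and fell were 16 and 32 after median-ratio scaling, 16 and 34 after quantile normalization, and 14 and 36 after upper-quartile scaling. Increases made up 51.2%, 52.3% and 44.7% of the calls over all tested genes after these scalings, in the same order.

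Among the makers of PRPP and their regulators, 2 of 4 tested genes rose and 2 fell. PRPSAP2 (log2 fold change 0.68 ± 0.15) and PRPS1 rose, PRPS2 fell, and so did PRPSAP1 (-0.66 ± 0.18). With an exact Wilcoxon test neither PRPS1 (adjusted p = 0.134) nor PRPSAP1 (adjusted p = 0.0523) passed. PRPSAP1 and PRPSAP2 encode proteins that associate with PRPP synthetase. Of the 8 tested genes of the adenylate branch and the adenylate kinases, 1 rose, 2 fell and 5 did not pass. ADSS1, the muscle form of the enzyme that turns IMP towards AMP, fell (-1.51 ± 0.15 on the log2(TPM + 1) scale, which understates the change of low genes), with 0.725 ± 0.149 TPM in LY and 4.0 ± 0.960 TPM in DMSO. Its more abundant paralog ADSS2 held 47.3 ± 6.23 TPM in LY and 44.4 ± 1.71 TPM in DMSO (log2 fold change 0.08 ± 0.10, limma adjusted p = 0.5). AK1 (-0.64 ± 0.13) fell, and AK4 (0.36 ± 0.11) rose, but it did not pass after any of the 3 other scalings.

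For the guanylate branch and the nucleoside diphosphate kinases, 1 of 7 tested genes rose, 2 fell and 4 did not pass. GUK1, which phosphorylates GMP, held 162 ± 11.3 TPM in LY and 195 ± 40.5 TPM in DMSO (log2 fold change -0.24 ± 0.15, limma adjusted p = 0.187), and without NC-2 it was called lower in LY (-0.40, adjusted p = 0.000532). With all 10 libraries GUK1 was also called lower after median-ratio (-0.39), quantile (-0.51) and upper-quartile scaling (-0.48), with limma adjusted p from 0.000519 to 0.00472. NME4 (-1.53 ± 0.13), the mitochondrial kinase, and NME3 (-1.48 ± 0.26) fell, and NME6 (0.85 ± 0.16) rose.

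In purine salvage, which recycles bases and nucleosides, 3 of 8 tested genes rose, 1 fell and 4 did not pass. HPRT1, the salvage enzyme of hypoxanthine and guanine, fell to 98.4 ± 13.8 TPM in LY, against 128 ± 16.6 TPM in DMSO (log2 fold change -0.38 ± 0.12, limma adjusted p = 0.0169; with an exact Wilcoxon test the adjusted p was 0.0523). APRT, which salvages adenine, held 380.3 ± 85.3 TPM in LY and 297 ± 80.3 TPM in DMSO (log2 fold change 0.38 ± 0.23, limma adjusted p = 0.162), and without NC-2 its log2 fold change was 0.17. AMPD3, an AMP deaminase that returns AMP to IMP, rose to 23.2 ± 2.05 TPM in LY, against 5.58 ± 0.564 TPM in DMSO (log2 fold change 1.88 ± 0.10). The kinases DGUOK (0.44 ± 0.15) and DCK (0.30 ± 0.11) also rose, but neither passed after quantile or upper-quartile scaling. DCK also did not pass after median-ratio scaling (limma adjusted p = 0.358) or with an exact Wilcoxon test (adjusted p = 0.0523). The call of DCK was lost on leaving out any 1 of LY-1, LY-2, LY-4, NC-1, NC-3 or NC-4 (limma adjusted p from 0.0593 to 0.0852). MTAP, which salvages adenine from methylthioadenosine, was near 0 in both groups, with means of 0.0429 TPM in LY and 0.0127 TPM in DMSO.

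Purine breakdown held the largest increase of all listed genes. PNP, the phosphorylase that splits inosine and guanosine, had 627, 656, 620.3, 648 and 648 TPM in LY-1 to LY-5, against 147, 108, 143, 163 and 184 TPM in NC-1 to NC-5. The LY libraries lay close together, with a coefficient of variation of 2.41%, and far above all DMSO libraries. Its log2 fold change was 2.12 ± 0.13 (limma adjusted p = 8.8e-08). Of 7 tested genes of breakdown 4 rose, 2 fell and 1 did not pass. The nucleotidases NT5C (1.12 ± 0.23) and NT5C3A (0.70 ± 0.13) rose. Adenosine deaminase ADA fell to 16.7 ± 2.20 TPM in LY, against 35.4 ± 7.79 TPM in DMSO (-1.02 ± 0.17), and the surface nucleotidase NT5E fell (-0.42 ± 0.09).

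Folate enzymes that supply the formyl groups used by GART and ATIC went both ways, with 3 of 12 tested genes higher, 4 lower and 5 that did not pass. MTHFD1, which makes the formyl donor in the cytosol, held 199 ± 26.9 TPM in LY and 197 ± 27.5 TPM in DMSO (log2 fold change 0.01 ± 0.13, limma adjusted p = 0.929), and it was called lower with quantile normalization (-0.25, adjusted p = 0.0196) and upper-quartile scaling (-0.23, adjusted p = 0.0373). MTHFD2, the mitochondrial enzyme, held 113 ± 14.1 TPM in LY and 99.7 ± 20.3 TPM in DMSO (log2 fold change 0.20 ± 0.16, limma adjusted p = 0.277), and without NC-2 its log2 fold change was 0.056. SHMT1 (-1.24 ± 0.18), which takes the folate-bound carbon from serine, and ALDH1L2 (-1.09 ± 0.12), which oxidises formyl folate in mitochondria, fell. SLC25A32, the mitochondrial folate carrier, rose to 40.2 ± 2.88 TPM in LY, against 13.4 ± 1.17 TPM in DMSO (1.52 ± 0.09). MTHFD1L (0.31 ± 0.11), a mitochondrial enzyme of formate production, rose, and it did not pass after any of the 3 other scalings or without LY-3, LY-4 or NC-1 (limma adjusted p from 0.0682 to 0.0772).

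Serine and glycine synthesis is the source of that carbon and of the glycine in the ring. Its list also held genes of glycine cleavage, among them GLDC, GCSH and DLD. Of 6 tested genes on this list 1 was higher and 5 were lower, with a median log2 fold change of -0.63. The number lower was 4 or 5 on leaving out 1 library at a time, and 3 with an exact Wilcoxon test. PHGDH had 6.97, 6.63, 9.82, 10.4 and 11.01 TPM in LY-1 to LY-5, against 85.7, 33.6, 82.3, 76.6 and 88.5 TPM in NC-1 to NC-5. NC-2 was the lowest DMSO library and still lay far above every LY library. The log2 fold change of PHGDH, the entry enzyme of serine synthesis, was -2.85 ± 0.25 (limma adjusted p = 1.41e-06). PSAT1 (-2.18 ± 0.16) and DLD (-0.72 ± 0.11), a subunit shared by the glycine cleavage system, fell, and GLDC (1.34 ± 0.21), which opens glycine cleavage, rose. The pentose phosphate pathway, which makes the ribose of PRPP, had 4 of 8 tested genes lower, 1 higher and 3 that did not pass (median -0.36). PGD fell to 186 ± 35.95 TPM in LY, against 455 ± 71.9 TPM in DMSO (-1.29 ± 0.15), with TKT (-0.87 ± 0.11) and TALDO1 (-0.77 ± 0.22, not with an exact Wilcoxon test). RBKS (0.37 ± 0.13), a ribokinase, rose, but it did not pass after median-ratio or upper-quartile scaling or without LY-4, LY-5, NC-1, NC-2 or NC-3 (limma adjusted p from 0.0532 to 0.0748).

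Pyrimidine synthesis, the parallel route, had 5 of 11 tested genes higher, 2 lower and 4 that did not pass. After median-ratio, quantile and upper-quartile scaling 5, 4 and 4 were higher, and 4 were lower each time. CAD, which carries its opening steps, held 143 ± 13.2 TPM in LY and 101 ± 20.0 TPM in DMSO (log2 fold change 0.52 ± 0.14, limma adjusted p = 0.00792). UCK2 (1.31 ± 0.12), a uridine kinase, UMPS (0.86 ± 0.16) and CTPS1 (0.63 ± 0.15) rose, and thymidylate synthase TYMS (-0.96 ± 0.10) and CTPS2 (-0.95 ± 0.11) fell. The CTP synthase paralogs again went apart. The CTPS1 to CTPS2 ratio was 5.25 to 5.90 in LY libraries and 1.53 to 2.07 in DMSO libraries, a pair chosen after its values were seen and given without a test. In deoxynucleotide production 0 of 6 tested genes rose, 2 fell and 4 did not pass, and SAMHD1 (-0.81 ± 0.09) and the reductase subunit RRM2 (-0.41 ± 0.08) were those that fell. The number called lower in this list was 3 after median-ratio scaling, 4 after quantile normalization and 5 after upper-quartile scaling, with 0 higher each time.

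**Figure D5:**
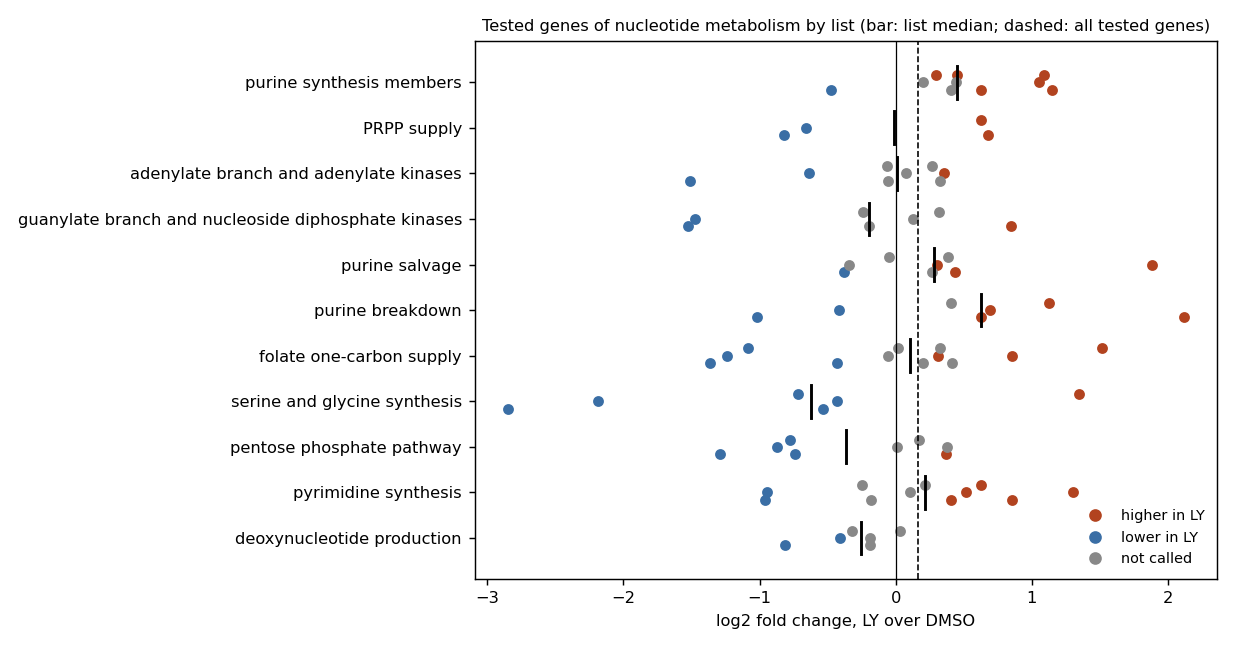
Log2 fold change of LY over DMSO for each tested gene of the purine synthesis members and of 10 lists of nucleotide metabolism (PRPS1 stands in the top row and among PRPP supply), with the list median as a bar and the median of all tested genes (0.17) as a dashed line. The medians are 0.45 for the members, 0.63 for purine breakdown, -0.63 for serine and glycine synthesis and -0.36 for the pentose phosphate pathway. The list of serine and glycine synthesis also holds genes of glycine cleavage.

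Likeness to a member was measured as the root-mean-square difference of log2(TPM + 1) over the 10 libraries, with each gene centred on its own mean. Closest to IMPDH2, the member with the largest increase, were CLTB (0.0456), a clathrin light chain, COA4 (0.0569), a mitochondrial assembly factor, and MAP2K1 (0.068), a protein kinase. Closest to IMPDH1, the member that fell, were DCXR (0.0362), a xylulose reductase, GSTP1 (0.0844), a glutathione transferase, and the serine synthesis enzyme PSPH (0.0868). These distances are a description of these 10 libraries.

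Of 5 epithelial markers 3 (KRT8, KRT18 and KRT19) were above a mean of 1 TPM in at least 1 group, with a summed level of 2146 to 2626 TPM in LY libraries and 1856 to 2600.3 TPM in DMSO libraries, whereas KRT7 and CDH1 were near 0. KRT19 held 21.0 ± 3.47 TPM in LY and 148 ± 16.6 TPM in DMSO. All 4 endocrine markers and 4 of 5 acinar markers were at 0 in every library. Of 5 leukocyte markers only CD68 passed 1 TPM, and the summed level of the list was 131 to 232 TPM in LY and 34.5 to 47.3 TPM in DMSO. The endothelial list passed 1 TPM only through CDH5 (sum 2.74 to 3.32 TPM in LY and 0.0988 to 0.535 TPM in DMSO) and the fibroblast list only through COL1A1 (sum 0.298 to 0.601 TPM in LY and 2.60 to 3.85 TPM in DMSO). Their part in the results was not tested. In bulk RNA, fewer cells of a type and less RNA per cell cannot be told apart.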

How the data were processed

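The deposited table holds TPM for 20263 genes in 10 libraries of PANC-1 cells, and the authors computed these values, per the table's name and its column sums. Aligner, counting tool and annotation: not given in the sources used here. The submitters' processing notes list the builds hg38, GRCm38 and mm10 without their roles. Depth is unknown from TPM, and no counting interval is given. Each group has 5 labelled samples, although the series' design text counts 4, and all 10 columns were used. Gene IDs were matched to symbols (20148 IDs, and 76 more from GENCODE release 29), and positions are from that release.

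The fit took the 11663 genes that reached 1 TPM in 5 or more libraries. They were fitted with limma 3.58.1 in R 4.3.3, with a mean-variance trend, on log2(TPM + 1), with the group as the only term. Fold changes are LY over DMSO, and an adjusted p under 0.05 is a call. The fit was tested on simulated data with independent noise and planted changes in a small set of genes. The simulation held neither the mitochondrial share of NC-2 nor changes in so many genes, so it does not speak to either. Shared sequence was counted as 31-base words of GENCODE transcripts found in another gene on either strand. Named genes are all 10 members, up to 3 called genes with the largest change each way per list, 11 genes fixed by name, and the 3 genes most like each of 2 members. Genes outside this rule (SON, CTC1, SGSM3, MTAP, PRPS1L1 and the ratio of CTPS1 to CTPS2) were added after their values were seen. Some genes that the rule names are not reported here. The members and lists were chosen with earlier results of these data known. Alternatives were other pseudocounts, filters, scalings and moderation, leaving out each library, and an exact Wilcoxon test. Removing the mitochondrial genes alone, and median-ratio scaling of the 9 libraries other than NC-2, were chosen after seeing the data.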

Additional observations from a re-analysis of the deposited data

Results flagged for a closer look

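A library was marked where its gap to the nearest of the 5 in its group exceeded 0.71 of the group's range (Dixon). Of 122 groups examined 19 were marked, where chance gives about 6.1, and 16 of the 19 were NC-2. This library held 37.5% mitochondrial TPM (12.2% to 14.1% in the other 4 DMSO libraries), 11340 genes at a TPM of at least 1 (11677 to 11765) and a summed TPM of the 10 members of 1024 (1433 to 1526).

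Among the members, IMPDH2 was marked at 281 TPM in NC-2 (405 to 424 in the other DMSO libraries) and ADSL at 104 TPM in LY-2 (57.4 to 60.9 in the other LY libraries). The same mark fell on NC-2 for 12 other genes. These were PRPSAP1 (18.1 TPM), ADSS1 (2.34), GUK1 (124), APRT (157), AMPD3 (4.61), ADA (21.8), MTHFD1 (148), SHMT1 (62.0), PHGDH (33.6), DLD (62.6), CTPS1 (47.1) and UCK2 (92.5). In LY, PRPSAP2 was marked at 92.0 TPM in LY-3 (59.8 to 66.5 in the others) and PSAT1 at 31.1 TPM in LY-4 (18.4 to 21.9).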

How the results depend on the processing

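No paired analysis was possible because the control columns carry names that no sample title holds, so their numbers could not be tied to those of the LY samples. GART, ATIC and IMPDH2 were called higher in all 23 alternatives (log2 fold changes from 0.85 to 1.18, from 0.79 to 1.099 and from 0.90 to 1.19), and IMPDH1 was called lower in 22 of 23 (from -0.75 to -0.42). PPAT was called in 22, GMPS in 17 and PRPS1 in 11 of 23. PFAS, PAICS and ADSL were called in none (adjusted p from 0.131 to 0.994, from 0.11 to 0.727 and from 0.0505 to 0.555). Members called higher numbered 3 with upper-quartile scaling instead of 6, and with an exact Wilcoxon test 0 were called lower instead of 1. The cause was not tested. Leaving out 1 library at a time gave 5 to 6 members higher and 1 lower.

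Some signs reversed, and of the reversed values only those of MTHFD1 after quantile and upper-quartile scaling passed the test. PFAS turned to -0.060 with quantile, -0.037 with upper-quartile scaling and -0.00088 after median-ratio scaling of the libraries other than NC-2. ADSS2 turned to -0.064 (median-ratio), -0.17 (quantile), -0.16 (upper-quartile), -0.12 (without mitochondrial and 50 most abundant genes), -0.074 (without mitochondrial genes) and -0.014 (without NC-2, median-ratio). MTHFD1 turned to -0.13, -0.25, -0.23, -0.19, -0.14 and -0.16 in the same settings, and MTHFD2 to -0.060 (quantile), -0.042 (upper-quartile) and -0.021 (without NC-2, median-ratio). Leaving out 1 library at a time, MTHFD1 ranged from -0.084 to 0.075. The PPAT/PAICS log2 difference ranged from -0.21 to 0.18, and the other ratios kept their direction. TPM keeps no depth, so the number of reads behind a value is unknown, and values of low genes may rest on few.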
